A study of Homo sapiens with 36 samples.

Results

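The MBNL2 3' UTR windows were the 8481 windows, of 42960 listed as enriched for MBNL2, whose leading annotation was the 3' untranslated region. They were chosen by that annotation alone, not by any measured value, and made up 19.7% of the MBNL2 list. Over the whole series, 788098 windows were listed in 9 tables, which came to 601384 distinct windows. The data came from enhanced crosslinking and immunoprecipitation (eCLIP), in which RNA fragments bound by a protein are recovered with an antibody and sequenced beside an input library made before that step. The cells were HEK293T, a human embryonic kidney line, with no further treatment, grown in separate dishes for each protein. In all, 9 proteins were assayed, MBNL2 among them, with 2 immunoprecipitated (IP) and 2 input libraries per protein. Per the labels' protocols, RNA was cut with RNase I, and an antibody to the protein or to a V5 tag was used. Which of these served for MBNL2 was not stated, so it is unknown whether the native or a tagged protein was recovered. The labels do not say that replicates came from separate cultures.

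MBNL2 is a muscleblind protein, a zinc-finger RNA-binding protein that recognises the letters YGCY, where Y is C or U. It is best known as a regulator of alternative splicing, and it also binds 3' UTRs, where muscleblind proteins have been linked to mRNA localisation, stability and poly(A) site choice. In myotonic dystrophy, muscleblind proteins are held by expanded CUG repeats, which lie in the 3' UTR of DMPK in type 1.

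The letters of member windows are shown first because they carry the muscleblind motif. A window could be read only where it lay wholly inside a RefSeq promoter interval (GRCh38.p14), which for a 3' UTR means that another gene starts nearby. Of the 8481 windows, 15 could be read. Each line gives the 30 bases of a window, 5' to 3' on the transcript strand, that hold the most motif copies, the first such stretch being taken, with the motif in capitals and T for U.
TMEM201: tgtgtgtgtcgaggttttttatttttTGCT
CALM3: aaaagatttgtcccaagctgcatgatTGCT
STRN4: TGCCcctcccctccggccctctccacTGCT
CEBPB: agCGCCcgCGCCcgCGCCctCGCCccCGCC
AARS1: tccaggggCGCTgtagTGCCtccCGCCGCT
NUP188: ccctggctggcaggggTGCTGCTggcTGCT
ZC3H11A:ZBED6: ataaTGCTGCTcTGCCttctacagctTGCT
The TMEM201 stretch lay at chr1:9614614-9614643 on the plus strand, and the CALM3 stretch at chr19:46609290-46609319 on the plus strand. The STRN4 stretch was at chr19:46719906-46719935 on the minus strand. The CEBPB stretch was at chr20:50192121-50192150 on the plus strand, and the AARS1 stretch at chr16:70252002-70252031 on the minus strand. The NUP188 stretch was at chr9:129006727-129006756, and that of ZC3H11A:ZBED6 at chr1:203802100-203802129, both on the plus strand. All lay in windows annotated as 3' UTR.

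The motif was searched as TGCT, as CGCT, as TGCC and as CGCC on the transcript strand only, and copies that overlap by 1 base were counted separately. All 15 readable MBNL2 3' UTR windows held a copy, at 2.84 copies per 100 nt. Of 57 readable 3' UTR windows listed for other proteins and not for MBNL2, 37 (64.9%) held one, at 1.74 copies per 100 nt. GC content differed too, at 56.4% in the MBNL2 windows and 51.3% in the others, and its part in the motif counts was not tested. The 5' UTR gave more readable windows and closely matched GC. There, 845 MBNL2 windows (69.0% GC) held 3.81 copies per 100 nt, and 3293 windows of other tables (68.4% GC) held 2.62. A copy was present in 81.2% and 72.4% of these windows. They are not members, so the part of GC content in the 3' UTR values stays untested. With 15 windows the 3' UTR values are a description of those windows, not of all members, and a match of 4 letters is not a binding site.

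The motif copies took different forms. The CALM3 window, in the 3' UTR of 1 of the calmodulin genes, had 149 IP and 41 input reads and a single copy. The CEBPB window, just past the stop codon of a C/EBP transcription factor gene, had 39 IP and 5 input reads, 7 copies and a GC content of 87.9%. The TMEM201 window had 150 IP and 11 input reads, the most IP reads of the 15, with 1 copy at the end of a stretch of T. Of these 3 windows, the one with the most copies had the fewest reads. The 3 were picked after their values were seen, and no relation of copies to reads was tested.

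The members lay in 2917 genes, counting joint names such as ZC3H11A:ZBED6 as 1 gene. Most genes held few windows: 1246 genes (42.7%) held 1 window, 629 held 2, 918 held 3 to 9, and 124 held 10 or more. Those 124 genes held 1653 windows, or 19.5% of the members. Of the 2917 genes, 2200 (75.4%) also had an MBNL2 window inside the coding sequence and 1690 (57.9%) one in the 5' UTR or at the start codon. In 344 genes (11.8%) the 3' UTR held the gene's MBNL2 windows and no other region did.

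Reads per window were few. Over the 8481 windows, the IP count summed over both replicates had a median of 18, with quartiles of 11 and 34 and a range of 4 to 1658. The input count had a median of 5, with quartiles of 3 and 9, and 316 windows (3.73%) had no input read. In all, the members held 258546 IP and 60890 input reads, a ratio of 4.25, and 9.60% of the IP reads in MBNL2 windows. Coding windows of the MBNL2 list held a median of 23 IP and 5 input reads. A 3' UTR window thus typically had fewer IP reads over a like input. Within classes of GC content the medians of IP reads were closer. For 3' UTR and coding windows they were 8 and 7 in the lowest class and 52 and 56 in the highest. The authors' own enrichment, a log2 odds ratio of IP over input, had a median of 2.57 in the lower replicate and 3.54 in the higher. In coding windows these medians were 2.39 and 3.26. Within each class of GC content the medians in the lower replicate were closer, and which was higher varied between classes. For 3' UTR and coding windows they were 3.83 and 3.85 in the lowest class and 1.83 and 1.88 in the highest. In the class of 40.2% to 43.4% GC both were 2.98, and in that of 54.6% to 60.0% they were 2.36 and 2.26. The part of GC content in the differences over all 3' UTR and coding windows was not tested. In both replicates the q-value was 0.05 or less in 4791 members (56.5%), against 54.6% of all MBNL2 windows, and 1367 members (16.1%) rested on under 10 IP reads.

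The gene with the most members was AGO2, the Argonaute protein that carries microRNAs and can cleave their targets. It held 34 windows among the 119 of its 3' UTR, with 5 to 157 IP reads per window and 1068 IP against 187 input reads in all. Its windows spread over a long stretch, and the highest read count, 157, was in window 68 from the stop codon side. PRRC2B, which encodes a large proline-rich coiled-coil protein, held 28 of 44 windows, with 7 to 381 IP reads. Its top window was the third from the stop codon, and its 28 windows held 2261 IP and 552 input reads.

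USP22, the deubiquitinase of the SAGA complex, was covered most densely among the first 3 genes. It held 27 of 35 windows (77.1%), with 6 to 366 IP reads and 2939 IP against 583 input reads. FOXK1, a forkhead transcription factor, held 21 of 90 windows with 8 to 106 IP reads. WASF2, an actin regulator that acts through the Arp2/3 complex, held 21 of 40 windows with 10 to 99 IP reads. PDPK1, the kinase that phosphorylates AKT in its activation loop, held 21 of 55 windows with 8 to 72 IP reads.

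KPNA6, an importin alpha that carries proteins into the nucleus, held 21 windows under a name joined with RP4-622L5.2, with 8 to 56 IP reads. MBD3, a subunit of the NuRD chromatin complex, held 20 of 48 windows, and its reads were concentrated near the stop codon. Windows 7, 9 and 10 of MBD3 from the stop codon had 274, 223 and 226 IP reads, against 11 to 67 in windows 18 to 44. DNAJC5, a chaperone of synaptic vesicles, held 20 of 45 windows with 14 to 76 IP reads. ANKRD52, a regulatory subunit of protein phosphatase 6, held 19 windows with 11 to 69 IP reads. Long 3' UTRs offer more windows, so these counts do not rank genes by binding alone. The part of transcript abundance and read depth was not tested.

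**Figure D1:**
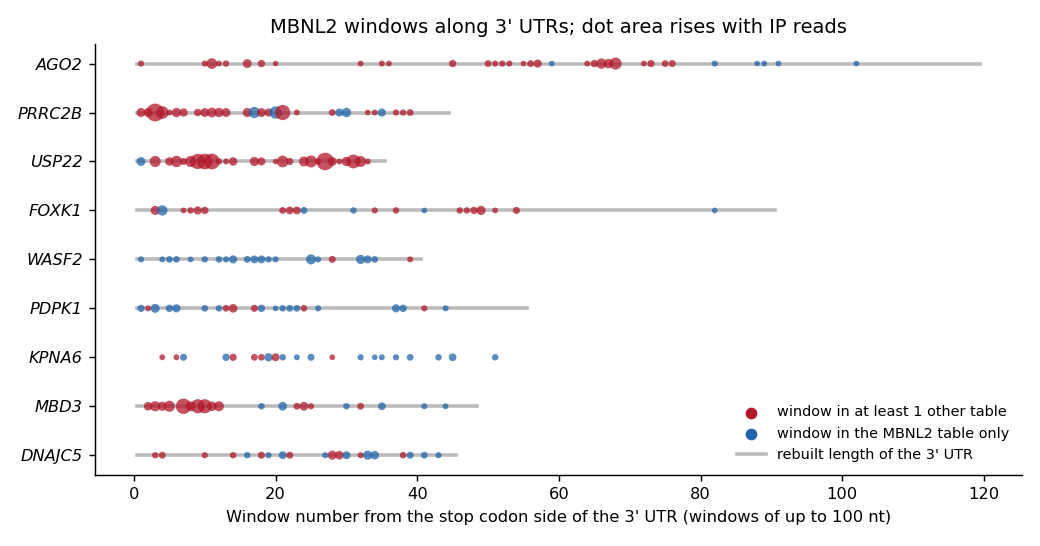
MBNL2 windows along the 3' UTR of 9 of the 10 genes with the most of them; ANKRD52 is absent because the number of windows to its stop codon could not be rebuilt. The x axis is the window number from the stop codon side, each dot is a listed window with area rising with IP reads, red dots are windows also listed for another protein, and grey bars show the rebuilt length where known. WASF2 is almost all blue, with 19 of 21 windows in the MBNL2 table alone, and USP22 is almost all red, with 1 of 27.

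Listed windows often stood next to each other. Joining windows with consecutive numbers in a 3' UTR gave 5961 stretches. Of the members, 4429 (52.2%) stood alone and 2074 (24.5%) lay in stretches of 3 or more. The longest stretch was 14 windows in RRP1B, a nucleolar protein of ribosomal RNA processing, at chr21:43693683-43695080 (hg38) with 1528 IP reads. ZNF703, a zinc-finger protein, and SURF4, a cargo receptor of the endoplasmic reticulum, each had a stretch of 11. USP22 had 2 stretches of 10. A further 359 members adjoined a stop codon window that was itself in the MBNL2 list. Because neighbouring windows may share fragments, they are not independent.

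By the authors' enrichment, the strongest member with at least 20 IP reads was in ZNF516, a zinc-finger protein. It lay at chr18:76359647-76359745 (hg38, minus strand), with 97 IP and 4 input reads and a log2 enrichment of 7.02 and 7.22 in the lower and higher replicate. A window of USP22 came next, with 125 IP and 12 input reads and enrichments of 6.92 and 7.40. GSE1 had a window with 46 IP and 4 input reads and enrichments of 6.92 and 6.97. The next 7 were in NEFL (neurofilament light chain), NCS1 (a neuronal calcium sensor), RPRD1B (a protein that binds the tail of RNA polymerase II), DNAJC8 (a J-domain protein of the spliceosome), REXO1:MIR1909, CHD6 (a chromodomain helicase) and PSMD11 (a proteasome lid subunit). Their lower-replicate enrichments ran from 6.39 to 6.62 on 21 to 52 IP reads. The PSMD11 window was also annotated as intron and as close to splice sites. Of these 10 windows, 9 had a GC content of 27.6% to 39.0%, and the CHD6 window had 53.6%.

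The windows with the most IP reads were others. TMEM107, a protein of the ciliary transition zone, had 1658 IP and 494 input reads in a window at chr17:8173588-8173674 (hg38, minus strand), whose edge overlaps SNORD118, the U8 small nucleolar RNA gene, by 1 nt in the RefSeq gene table. The part of SNORD118 in those reads was not tested. JUN, the AP-1 transcription factor, had 976 IP and 76 input reads and an enrichment of 2.58 in the lower replicate. EEF2, the translation elongation factor, had 668 IP and 179 input reads in the first window of its 3' UTR, with an enrichment of 1.04. PSAP, the precursor of the saposins, had 560 IP and 38 input reads, and ARF1, a GTPase of the Golgi, had 524 and 65. JUN, EEF2, PSAP and ARF1 had a GC content of 61.1% to 68.0% in these windows. In all, 6 member windows overlapped a small RNA gene of RefSeq, TMEM107 included.

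GC content of the members had a median of 52.0%, with quartiles of 44.8% and 58.1%. Within the MBNL2 list it was lower than in coding windows (54.7%), stop codon windows (55%), start codon windows (66.0%) and 5' UTR windows (72.6%). Among 3' UTR windows of the other proteins, only those of EIF4B had a higher median, at 55%. The others had medians of 48.5% (RNPS1), 47.6% (RBM10), 45.8% (LGALS3), 44.0% (GRB2 and RBM22), 43.6% (CPSF6) and 34.3% (CPSF5). The lower quartile of the members lay above the upper quartile of CPSF5, at 44.8% and 42.0%. EIF4B is a cofactor of the helicase EIF4A in translation initiation, and CPSF5 is the subunit of cleavage factor Im that binds UGUA.

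**Figure D2:**
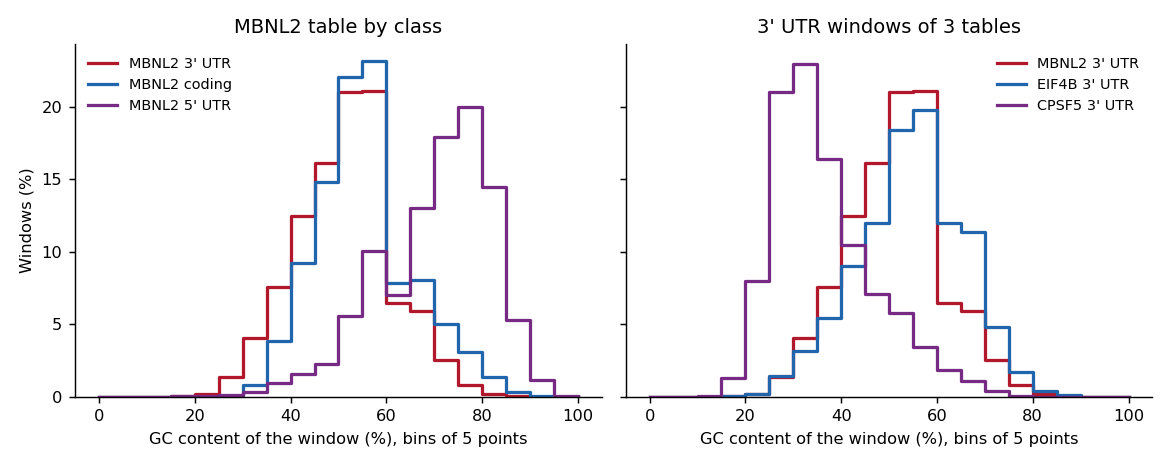
Share of windows, in percent, in bins of 5 points of GC content, for MBNL2 3' UTR, coding and 5' UTR windows (left) and for 3' UTR windows of MBNL2, EIF4B and CPSF5 (right). MBNL2 3' UTR windows peak between 50% and 60% and drop at 60%, while the CPSF5 windows, with a median of 34.3%, lie far to the left.

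The distribution of GC had a step at 60%. Above 55% and up to 60% GC there were 1760 members, with a median of 24 IP and 5 input reads. Above 60% and up to 65% there were 558, with a median of 50.5 IP and 6 input reads. MBNL2 coding windows had the same step, with 4933 windows below it and 1729 above, and medians of 25 and 53 IP reads. The deposited tables sort windows into GC classes, and 60% is the lower edge of the highest class. Above the edge the members' median enrichment was 1.86, and below it 2.35.

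The deposited enrichment and the plain read ratio ordered the members in opposite directions along GC. In the lowest GC class (15.6% to 30%, 135 windows) the median window had 8 IP and 7 input reads, yet the median enrichment in the lower replicate was 3.83. In the highest class (60.2% to 89.2%, 1356 windows) the median window had 52 IP and 6 input reads, and the enrichment was 1.83. The log2 ratio of IP to input reads minus the mean enrichment, in windows with an input read, had a median of -4.11 in the lowest class and 0.89 in the highest. In MBNL2 coding windows those medians were -4.10 and 0.89. The other classes from 30.2% to 54.5% GC had medians of -3.64 to -1.04 in 3' UTR windows, and the class of 54.6% to 60.0% had -0.39. Within a class of 3' UTR windows the quartiles lay 0.15 to 0.38 log2 units apart.

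Across the 8481 members, Spearman's rho was -0.48 between GC and enrichment in the lower replicate, and 0.66 between GC and the read ratio. It was 0.63 between GC and IP reads and -0.03 between GC and input reads. Between enrichment in the lower replicate and the read ratio it was 0.21. These correlations describe windows of the same 4 libraries, many of them neighbours in 1 gene. They cover windows listed as enriched only, and the part of that selection in them was not tested. Ranking by each measure picked mostly different windows at the top. The 100 members with the highest enrichment had a median GC of 37.6%, and the 100 with the highest (IP + 1)/(input + 1) had 62.9%, with 13 windows in both. The enrichments of windows that differ in GC are therefore not on the scale of their reads, and no source used here states the model behind them.

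**Figure D3:**
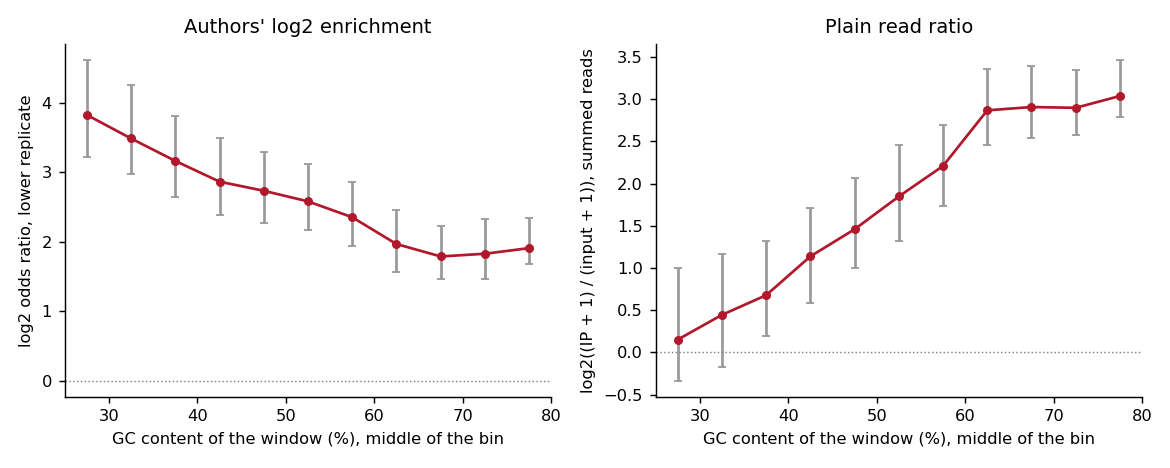
The authors' log2 enrichment in the lower replicate (left) and log2((IP + 1)/(input + 1)) from summed reads (right) against the GC content of MBNL2 3' UTR windows in bins of 5 points. Dots are medians and bars run between the quartiles; bins with under 20 windows are left out. The left curve goes down with GC and the right one goes up.

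The extremes of GC, among windows of at least 90 nt with at least 20 IP reads, show both scales. TNPO2, a nuclear import receptor, had a window of 19.6% GC with 27 IP and 10 input reads and an enrichment of 5.07. CBX6, a Polycomb protein, had one of 20.2% GC with 57 IP and 26 input reads and 5.42. CRKL, an adaptor of tyrosine kinase signalling, had one of 24.5% GC with 33 IP and 7 input reads and 6.19. At the other end, PITX1, a homeobox factor, had 88.4% GC, 59 IP and 5 input reads and an enrichment of 2.19. The CEBPB window shown above, with 39 IP and 5 input reads, had 1.65. ACAP3, an ARF GTPase-activating protein, had 83.7% GC, 53 IP and 7 input reads and 1.5.

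The members lay toward the stop codon. The deposited window number within a 3' UTR, the feature bin, follows the genome coordinate on both strands, so it counts from the stop codon on the plus strand and from the far end on the minus strand. Its median was 7 on the plus strand and 11 on the minus strand. After turning the minus strand round, 7285 members could be counted from the stop codon, with a median of window 7. Of these, 781 (10.7%) were the first window and 3097 (42.5%) were among the first 5.

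For 6226 members in 2125 3' UTRs the whole number of windows could be rebuilt, and 64.7% of these windows lay nearer the stop codon than the far end, where even placement would give 50% (a window across the middle was split). The share was 65.4% on the plus strand and 63.9% on the minus strand. It ran from 62.2% to 71.3% over 5 classes of 3' UTR length. With the 3' UTR cut into 10 equal parts, the first part held 16.3% of the windows and the last 2.46%, and each part held less than the one before. The last window of the 3' UTR, which ends at the annotated end of the transcript, accounted for 81 members (1.30%), where even placement would give 7.09%. Reads in windows that were not listed are not known, so coverage at the ends of 3' UTRs was not tested.

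Among the other proteins, RNPS1, a factor of the exon junction complex and splicing, had 73.6% of its placed 3' UTR windows nearer the stop codon, EIF4B 69.7%, LGALS3 67.6%, CPSF6 64.8%, RBM22 64.6%, GRB2 55.1%, RBM10 54.9% and CPSF5 52.0%. CPSF6, the partner subunit of CPSF5, had a share close to that of MBNL2 but another shape. The first part held 16.3% of MBNL2 and 25.4% of CPSF6 windows, and the last part 2.46% of MBNL2 and 7.79% of CPSF6 windows. CPSF5 windows were about as frequent in the first part (13.5%) as in the last (14.6%). The last part of EIF4B held 2.50%, near that of MBNL2.

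**Figure D4:**
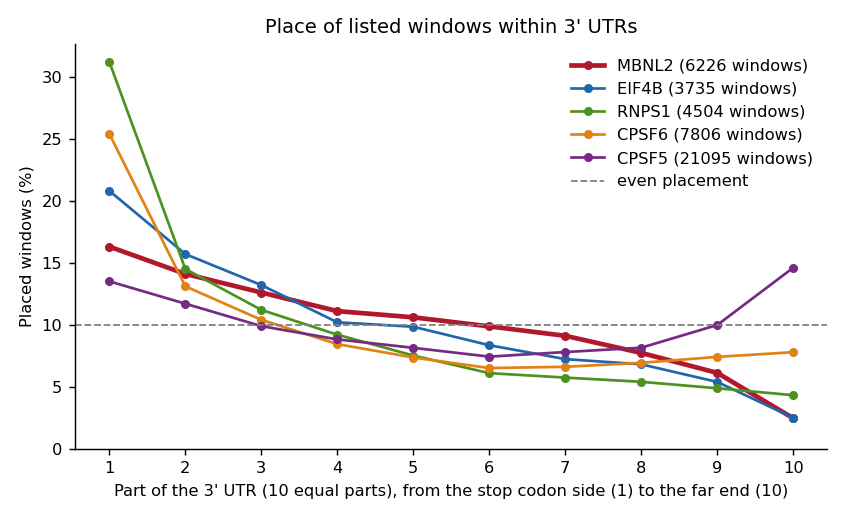
Place of 3' UTR windows listed for MBNL2, EIF4B, RNPS1, CPSF6 and CPSF5, in percent of placed windows in each of 10 equal parts of the 3' UTR from the stop codon side to the far end; the dashed line marks even placement. The MBNL2 line goes steadily down from 16.3% to 2.46%, and the CPSF5 line turns up to 14.6% at the far end.

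Median reads and GC content fell along the 3' UTR. Windows 1 to 5 from the stop codon had a median of 21 IP and 6 input reads and 53.1% GC. Windows 6 to 20 had 18 and 5 reads and 51.5% GC, and those beyond window 20 had 15 and 4 reads and 50% GC. The median enrichment in the lower replicate went slightly the other way, at 2.50, 2.59 and 2.65 in the same groups. The sharing with other tables fell along the 3' UTR. In windows 1 to 5, 30.7% of members were in no other table, in windows 6 to 20 it was 48.0%, and beyond window 20 it was 59.6%.

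Of the 8481 members, 4767 (56.2%, exact Clopper-Pearson 95% interval 55.1% to 57.3%, which covers counting error only) carried the name of a window in at least 1 of the other 8 tables. The other 3714 (43.8%) were listed for MBNL2 alone. Of MBNL2 coding windows, 15.3% were listed for MBNL2 alone. The other lists differ in make-up, with 3' UTR windows from 1.42% of the GRB2 list to 78.9% of the CPSF5 list. No background over coding windows was taken, so the gap from 43.8% cannot be read as a trait of 3' UTR windows. As background, 50800 distinct 3' UTR windows were listed in any of the 9 tables, and 16.7% of them were in the MBNL2 list. Unlisted windows are missing from this background, so its shares are not those expected by chance. Absence from a table may mean too few reads there as well as no enrichment, and the tables cannot tell these apart. Members listed for MBNL2 alone had a median of 16 IP reads, against 18 in those with 1 other table, 22 with 2 and 27 with 4.

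CPSF5, whose list held 60.3% of the distinct 3' UTR windows of the 9 tables, shared 2651 members. That was 31.3% of the members, against the 60.3%, and 8.66% of the CPSF5 3' UTR windows, against the 16.7% listed for MBNL2. The overlap with CPSF5 was thus the highest in number and below both of these background shares. Of that background, 24089 windows were in the CPSF5 list alone, so how the overlap stands against chance is not known. Of MBNL2 coding windows 4.26% were in the CPSF5 list, of which 78.9% is 3' UTR. The shared members had a median GC of 48.0%, and the members not shared with CPSF5 had 53.5%. By gene, 2282 were in both 3' UTR lists, or 78.2% of MBNL2 genes and 37.5% of CPSF5 genes. Of all 7633 gene names with a 3' UTR window in any table, 79.7% had one for CPSF5 and 38.2% one for MBNL2, so the overlap by gene was near the background. For 1255 members CPSF5 was the sole other protein.

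EIF4B shared 1863 windows, 22.0% of the members and 37.0% of its own 3' UTR windows, and its list held 9.91% of the distinct 3' UTR windows. Members shared with EIF4B had a median of 31 IP reads and 54.3% GC, and the rest had 16 IP reads and 51.0% GC. CPSF6 shared 1594 windows, 18.8% of the members and 14.1% of its own, and held 22.2% of the distinct 3' UTR windows. RNPS1 shared 1248, 14.7% of the members and 19.2% of its own, and held 12.8% of the distinct ones. With a q-value of 0.05 or less in all tables, 9.35% of members were shared with CPSF6 and 8.45% with RNPS1. That q-value was met by 41.3% of CPSF6 and 47.5% of RNPS1 3' UTR windows, and no background was taken at it. These lists held larger shares of MBNL2 coding windows, at 69.9% for RNPS1, 51.0% for CPSF6 and 34.5% for EIF4B. The lists lie mostly outside 3' UTRs, which make up 4.26% of RNPS1, 7.26% of CPSF6 and 7.32% of EIF4B windows. No background over coding windows was taken, so the part of this make-up in the coding shares was not tested. Members shared with RNPS1 had a median relative place of 0.208, on a scale of 0 at the stop codon to 1 at the far end, and those not shared had 0.389.

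GRB2, a signalling adaptor, shared 298 members (3.51%), which was 7.21% of its 3' UTR windows, and its list held 8.13% of the distinct ones. These lay in 101 genes, and 52 of them (17.4%) were in AGO2 and USP22. In AGO2, 26 of the 34 MBNL2 windows were also GRB2 windows, and in USP22 26 of 27. Without both genes the shared percentage was 2.92%, and with the stricter q-value it was 2.05%. RBM10 shared 120 members (1.41%), RBM22 84 (0.990%) and LGALS3, a galectin, 74 (0.873%). Of the distinct 3' UTR windows, 2.00% were listed for RBM10, 0.955% for RBM22 and 0.226% for LGALS3. With the stricter q-value the percentages of members shared were 0.397% for RBM10, 0.376% for RBM22 and 0.167% for LGALS3. That q-value was met by 50.2% of GRB2, 35.9% of RBM10, 30.7% of RBM22 and 13.0% of LGALS3 3' UTR windows. No background was taken at it, so these lower percentages cannot be read as a loss of overlap. For LGALS3 those 74 windows were 64.3% of its 115 3' UTR windows.

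**Figure D5:**
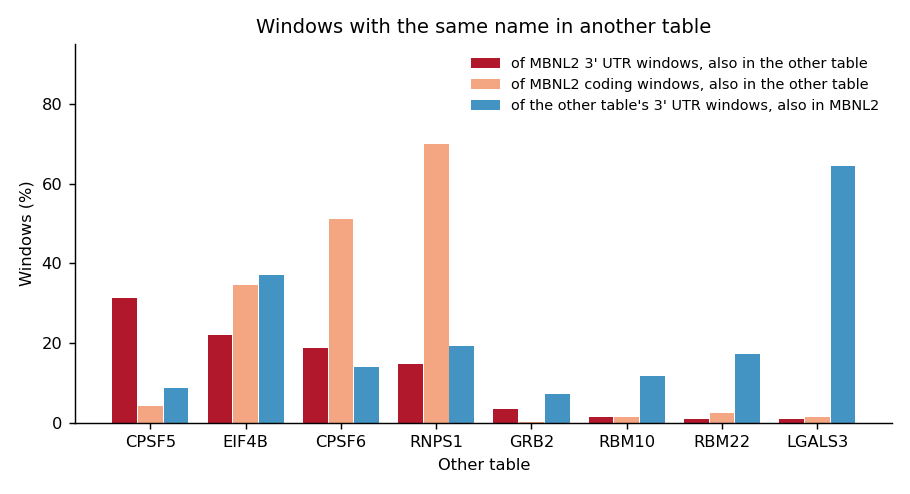
Windows with the same name in the MBNL2 table and each other table. Red bars give the percentage of MBNL2 3' UTR windows that are also in the other table, orange bars that of MBNL2 coding windows, and blue bars the percentage of the other table's 3' UTR windows that are also in MBNL2. CPSF5 has the tallest red bar (31.3%) and RNPS1 the tallest orange bar (69.9%).

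Few windows were widely shared. The window in the most tables was in RBM4, a splicing regulator, at chr11:66646215-66646299 (hg38, plus strand). It was listed for 7 other proteins, all except LGALS3, with 50 IP and 10 input reads for MBNL2 and enrichments of 4.28 and 4.30. Its annotation also named an intron, as did that of 605 members (7.13%), so such windows may not be 3' UTR in every transcript. The TMEM107 window and one in DDX11, a DNA helicase, were in 6 other tables, and 51 members were in 5. Those with the most IP reads were in PRRC2B, with 381 IP and 40 input reads, and in USP22, with 366 and 47.

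The genes with the most members listed for MBNL2 alone were WASF2, PI4K2A, PDPK1, NCS1 and KPNA6. PI4K2A, a kinase that makes phosphatidylinositol 4-phosphate, had all 17 of its members in no other table, 17 of the 27 windows of its 3' UTR. They held 8 to 45 IP reads each, 360 in all, against 46 input reads. WASF2 had 19 such windows of 21, PDPK1 15 of 21, NCS1 14 of 18 and KPNA6 14 of 21. WASF2 shared 2 windows with CPSF5 and 1 with EIF4B.

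Gene lists were set against the share of all gene symbols with a 3' UTR window in any table that had one in MBNL2, which was 38.4% (2961 of 7709). Of the muscleblind and CELF family, which act as opposing splicing regulators, 4 of 9 genes had a 3' UTR window in any table and 2 had one for MBNL2. CELF1 had 19 windows with 8 to 98 IP reads, 546 IP and 200 input reads in all. MBNL1 had 2 windows with 7 and 12 IP reads. MBNL2 itself had no 3' UTR window in any of the 9 tables, so its own 3' UTR gives no value here.

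Of 30 reported muscleblind splicing targets, 17 had a 3' UTR window in any table and 9 of these (52.9%) had one for MBNL2. ADD1, the membrane-skeleton protein adducin, had 7 windows with 342 IP and 36 input reads. ATP2A2, the SERCA2 calcium pump, had 6 windows with 86 IP and 34 input reads, 5 of them in no other table. CLASP1, a microtubule plus-end protein, had 4 windows, and PKM, pyruvate kinase, had 2 with 90 and 200 IP reads. INSR, the insulin receptor, had 1 window of 9 IP reads. With 17 genes this percentage rests on few members.

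Of 3' UTR regulators (repressors, Argonaute proteins and deadenylases), 9 of 23 (39.1%) had an MBNL2 window, near the background. Besides AGO2, TNRC6B, a GW182 scaffold of microRNA silencing, had 12 windows, 11 of them in no other table. ELAVL1, the HuR protein that binds AU-rich elements, had 9 windows with 5 to 66 IP reads. CNOT6, a deadenylase, had 7 windows with 5 to 9 IP reads. Cleavage and polyadenylation factors had 5 of 18 (27.8%), led by CPSF7, the other large subunit of cleavage factor Im, with 8 windows and 304 IP reads. CPSF4 had 3 windows, and PABPN1, the nuclear poly(A)-binding protein, had 1 with 55 IP reads.

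Kinesins and dynein, the microtubule motors, had 9 of 24 (37.5%). Of these, KIF1B had 4 windows with 64 IP reads and DCTN1, the p150 subunit of dynactin, had 2 with 94. Adhesion and extracellular matrix genes had 7 of 18 (38.9%), with 6 windows in VCL (vinculin), 5 in DAG1 (dystroglycan) and 4 in CTNND1 (p120 catenin). Cytosolic ribosomal proteins had 8 of 18 (44.4%), and RPL15 had the most, with 4 windows and 62 IP against 58 input reads. Of the genes for the 9 assayed proteins, 4 of 7 (57.1%) had a window, namely GRB2 with 5, RNPS1 with 4, RBM10 with 1 and EIF4B with 1.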

How the data were processed

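eCLIP libraries of 9 proteins in HEK293T cells were given as 1 table of enriched windows per protein. Read counts were deposited as whole numbers for each window, 1 for IP and 1 for input, and per the file headers are sums over replicates. The log2 enrichment (a log2 odds ratio of IP over input) was deposited by the authors as the lower, mean and higher replicate value, and it is their own value, used to describe and rank windows within the MBNL2 list. The authors also deposited a p-value and q-value per window, the largest q-value among members being 0.1983. The GC fraction comes from the deposited tables and is given in percent. The build is hg38, per the submitters' processing notes; the aligner and the window caller were not stated. The annotation version was not stated either. Coordinates are 1-based. No column of other samples was present.

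Members were the MBNL2 windows with the leading annotation UTR3. Windows were matched between tables by name, and no name had differing coordinates. The windows of a 3' UTR were counted from window numbers of the next annotated feature; on the minus strand the rebuilt boundary was met in 2817 of 2817 windows that could be checked, and the far end lay within 100 nt of a RefSeq gene end in 1810 of 2106 3' UTRs. The placing was tested on simulated data. Windows were spread over 10 equal parts of the 3' UTR in proportion to their overlap. Window letters were read from RefSeq promoter intervals, and GC equalled the deposited value in 7057 of 7057 windows so read. Software was pandas 2.3.3, scipy 1.17.1 and numpy 2.4.6 under Python 3.11.15, with matplotlib 3.10.9 for plots.

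Since counts were summed over replicates, no test between groups was made, and library depth is unknown. Named windows and genes were those with the most windows, the highest enrichment, the most IP reads, the most other tables, the most windows in no other table, the extremes of GC, and up to 4 of each gene list; windows whose letters are shown, RRP1B, ZNF703, SURF4 and INSR were named after their values were seen. The members and gene lists were chosen with earlier results of these data known.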

Additional observations from a re-analysis of the deposited data

How the results depend on the processing

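No paired analysis was possible because the counts were summed over replicates, so no replicate could be left out either. The number of members was 4791 where the q-value was 0.05 or less in both replicates, 3916 with at least 20 IP reads and 10580 when any annotation naming the 3' UTR counted. Their share of the MBNL2 list was then 20.4%, 15.5% and 24.6%, and 9.60% by IP reads. Under the stricter q-value, median GC was 51.0%, IP and input reads were 24 and 6, 41.8% of members were in another table, and the percentages shared were 23.2% (CPSF5), 9.35% (CPSF6), 16.4% (EIF4B), 8.45% (RNPS1), 2.05% (GRB2), 0.397% (RBM10), 0.376% (RBM22) and 0.167% (LGALS3). No background over windows was taken at that q-value. With at least 20 IP reads, median GC was 57.3%. With at least 20 IP reads in both tables compared, 29.4%, 29% and 2.96% were shared with CPSF5, EIF4B and GRB2. With genes as the unit, GC was 51.5%, reads were 16 and 4, and 69.1% lay nearer the stop codon than the far end. The higher replicate gave an enrichment of 3.54. The background of gene symbols was 22.1% with at least 2 windows and 30.9% with the stricter q-value. Settings chosen after seeing the data were each strand alone, the read-ratio ranking, the TMEM107 window left out, and AGO2 and USP22 left out (2.92% shared with GRB2). Of 73 alternatives, 35 stayed within counting error, the replicate spread or 1.5 times a count, and 38 moved. Whether any direction turned was not scored. The causes of these shifts were not tested. Library depth is unknown, and 1367 members (16.1%) rest on under 10 IP reads.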
